A study of Drosophila melanogaster with 8 samples.

Results

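The mitochondrial ribosomal protein genes are the nuclear genes for the proteins of the ribosome inside mitochondria. In the deposited gene table they were taken as the genes whose symbol is mRpL or mRpS followed by a number and at most 1 letter, in the file or as the current name, together with tko and bonsai. After transcripts were summed by their CG identifier, this gave 75 of 14012 genes, of which 47 belonged to the large and 28 to the small subunit. Of the 75, 74 carried such a symbol in the file and mRpL37 was found by its current name alone. The file gives CG5497 and CG2101 the same symbol, mRpS35, and the first is called mRpS28 below by its current name.

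The 2 sources of RNA were exosomes that Drosophila S2 cells had shed (4 libraries) and the S2 cells (4 libraries). S2 is an embryonic Drosophila cell line that resembles macrophage-like blood cells. Exosomes are small vesicles of endosomal origin that cells secrete. Both groups were polyadenylated RNA of the same line, and the labels give no treatment or genotype for either. The libraries carry the numbers 1 to 4 in each group, and the design text speaks of 4 separate experiments. Separate cultures are not named in the labels, and the p-values below therefore reflect library-to-library spread, part of which may be technical. Fewer vesicles with an mRNA and fewer copies per vesicle cannot be told apart in such bulk RNA. The comparison addresses which mRNAs S2 exosomes carry.

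Mitochondrial ribosomes translate the few mRNAs encoded by mitochondrial DNA, which specify core subunits of the respiratory chain and of ATP synthase. Their ribosomal RNAs are made in the organelle, whereas their proteins are encoded in the nucleus, made on cytosolic ribosomes and imported. The small subunit binds mRNA and holds the decoding centre, and the large subunit holds the peptidyl transferase centre and the exit tunnel. Part of the proteins descend from those of the bacterial ribosome, and the rest are found only in mitochondrial ribosomes. By the mammalian relatives of each protein, 29 large and 18 small subunit members have a bacterial relative, and 18 large and 10 small subunit members do not.

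The values are FPKM, fragments scaled to transcript length and to the size of the library, as the authors made them. The libraries are not on an equal scale. Summed FPKM over all genes ran from 91304 to 850262 in exosome libraries and from 102736 to 1140885 in cell libraries. The values of 6 libraries rose in steps that give the fragments behind them, and they imply scaling to about 100000 fragments in exosome replicate 2, 1930000 in exosome replicate 3 and 2170000 in exosome replicate 4. For cell replicates 2, 3 and 4 the sizes were 1910000, 2330000 and 6500000. No step was found in the replicates numbered 1, so their depth is unknown. Tested genes are the 5868 that passed 1 FPKM in at least 4 libraries, 73 of the 75 members among them. Exosome replicate 1 stood apart, because 42.3% of the tested genes were listed at 0 there. Of all 88 cytosolic ribosomal protein genes, tested or not, which every cell uses, 40 were at 0 there, against 2 to 6 in the other libraries. Exosome replicate 2 stood apart too, with 48.9% of tested genes at 0. In the other 6 libraries this share was 0.562% to 5.88%. An exact 0 may be a failed estimate, so a gene is described below as listed at 0, not as absent. Of 10 plasmatocyte markers, 8 passed 1 FPKM in at least 4 libraries, with summed levels of 44.9 to 163 FPKM in exosome libraries and 19.6 to 2069 FPKM in cell libraries. The markers did not share 1 profile. In cell replicate 1, vkg and Col4a1 had 735 and 1049 FPKM, and Hml, Pxn, srp and crq 37.3 to 94.9 FPKM. There NimC1, eater, Sr-CI and He were below 1 FPKM, against 3.28, 29.7, 26.7 and 49.3 FPKM in cell replicate 2. The summed markers of fat body, follicle cells, germ line, muscle and neurons stayed at or below 6.51 FPKM in every library.

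Messenger RNA for the mitochondrial ribosome made up overlapping shares of the total in exosome and cell libraries. The 75 genes together made up 0.362%, 0.277%, 0.315% and 0.331% of summed FPKM in exosome replicates 1 to 4, against 0.547%, 0.345%, 0.316% and 0.131% in cell replicates 1 to 4. The exosome mean was 0.321% ± 0.0351 (SD, n = 4) and the cell mean 0.335% ± 0.17 (SD, n = 4). All 4 exosome shares lay inside the cell range, and the cell libraries varied more among themselves than the means differed. In the libraries with few zeros, the levels of the members spanned a wide range. In cell replicate 1 they ran from 16.5 FPKM (mRpL37) to 186 FPKM (mRpL12), with a median of 48.2 FPKM. Members above 0 ran from 3.78 to 131 FPKM in cell replicate 2 and from 1.12 to 54.5 FPKM in exosome replicate 4. The median member stood at 27.3, 0, 2.40 and 15.8 FPKM in exosome replicates 1 to 4, against 48.2, 43.6, 2.86 and 1.65 FPKM in cell replicates 1 to 4. The order of these medians changes with each library's scale. Ranks within a library do not, but they depend on how many genes are tied at 0 in it. Among tested genes, the median member stood at percentile 83.5, 24.4, 48.1 and 75.6 in the exosome libraries, against 71.7, 70.8, 44.1 and 56.3 in the cell libraries. Percentile 24.4 is the rank that all genes at 0 share in exosome replicate 2.

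**Figure D1:**
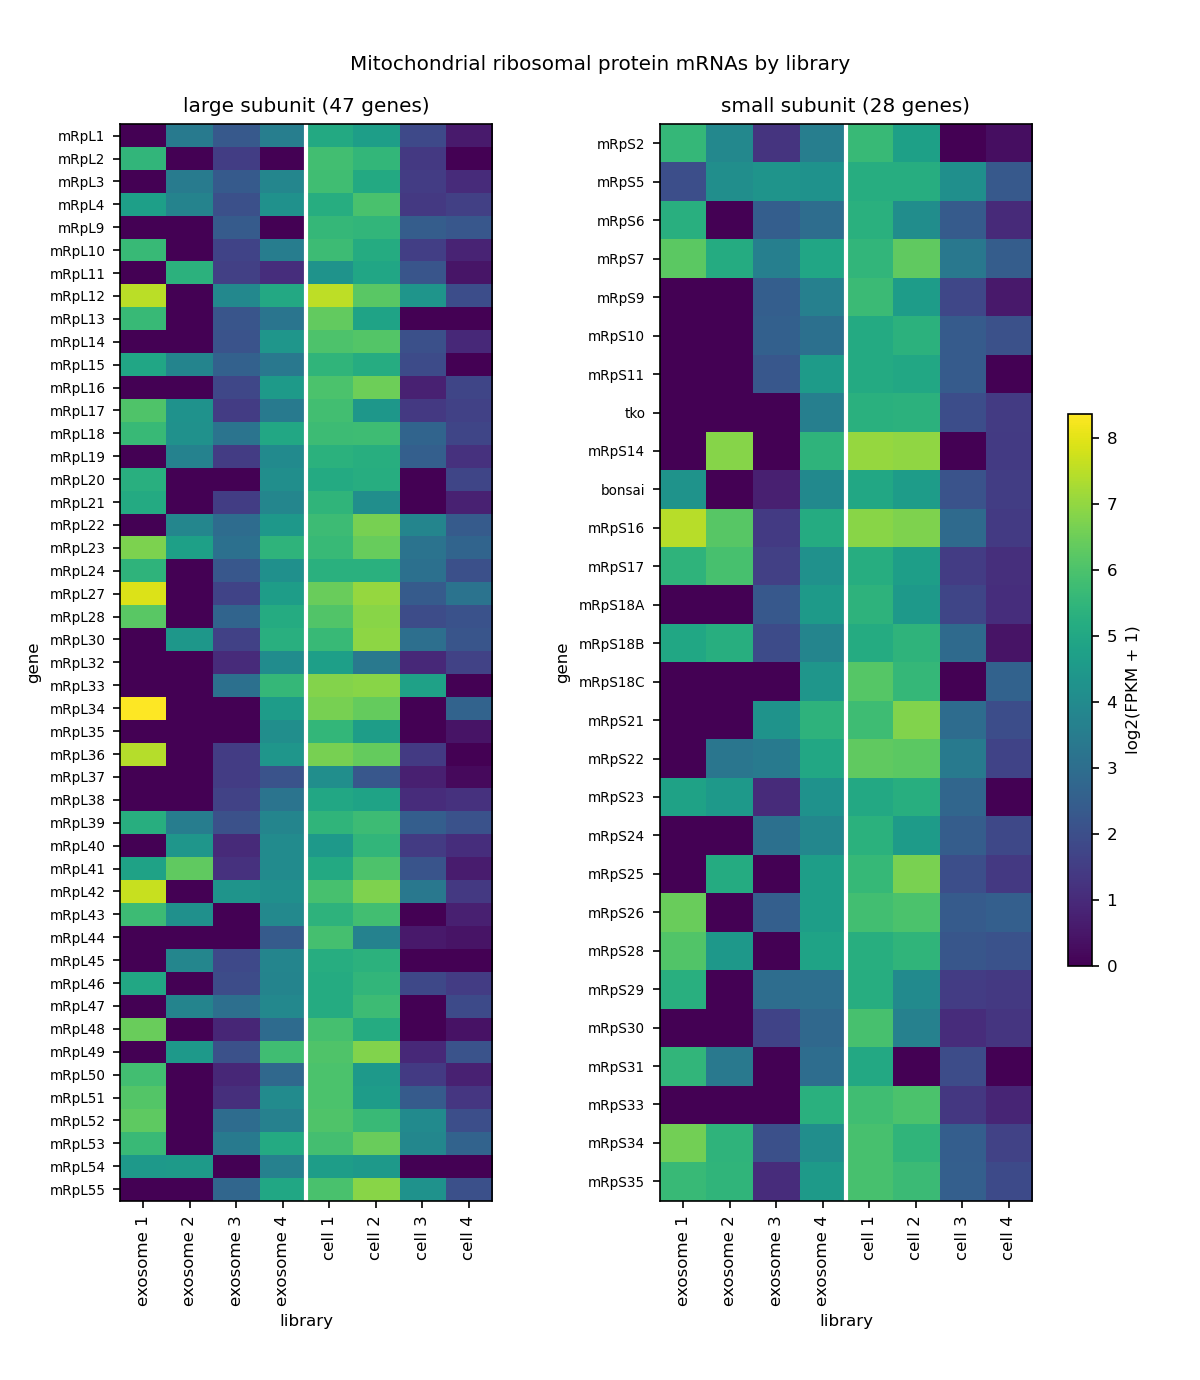
Level of each of the 75 genes, as log2(FPKM + 1), in the 4 exosome libraries (left of the white line) and the 4 cell libraries (right), with large subunit genes in the left panel and small subunit genes in the right. The darkest cells are genes listed at 0, which number 33, 42, 13 and 2 in the exosome columns and 0, 1, 13 and 10 in the cell columns.

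Which members were seen differed greatly between the exosome libraries. Members listed at 0 numbered 33, 42, 13 and 2 in exosome replicates 1 to 4, against 0, 1, 13 and 10 in cell replicates 1 to 4. In each exosome library some members were thus listed at 0, and cell replicate 1 was the library with no zero. Of the 73 tested members, 42.5%, 54.8%, 15.1% and 2.74% were at 0 in exosome replicates 1 to 4, where the share over all tested genes was 42.3%, 48.9%, 5.88% and 2.03%. In cell replicates 3 and 4 the shares were 16.4% and 13.7% of tested members, beside 4.64% and 4.45% of all tested genes. For exosome replicate 1, then, the members were at 0 as often as genes in general.

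Of the 75 genes, 16 were above 0 in all 4 exosome libraries, 34 in 3, 19 in 2 and 6 in 1, and none was at 0 in all 4. In cell libraries, 55 were above 0 in all 4, 16 in 3 and 4 in 2. The 16 genes seen in every exosome library were mRpL4, mRpL15, mRpL17, mRpL18, mRpL23, mRpL39 and mRpL41 of the large subunit, and mRpS2, mRpS5, mRpS7, mRpS16, mRpS17, mRpS18B, mRpS23, mRpS34 and mRpS35 of the small. Both subunits and both classes of protein, with and without a bacterial relative, are among them. The untested members were mRpL35 and mRpL44, 2 large subunit genes that passed 1 FPKM in fewer than 4 libraries. For mRpL35, values were 0, 0, 0 and 16.6 FPKM in the exosome libraries, against 45.2, 24.0, 0 and 0.361 FPKM in the cell libraries. For mRpL44 they were 0, 0, 0 and 4.32 FPKM in the exosome libraries, against 58.2, 12, 0.471 and 0.368 FPKM in the cell libraries.

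The depth behind these values was low in several libraries. In exosome replicate 2, 28 of the 61 members with a readable step were above 0, and 27 of these rested on 1 to 3 fragments. The highest, mRpS35, had about 4.06 fragments, and the 61 members held about 40.4 fragments in all. A level of 8.82 FPKM (mRpS22) was the lowest above 0 there, and it rested on about 0.994 of an estimated fragment, that is on 1. As the libraries are not on an equal scale, this value sets no limit on levels in other libraries. For example, mRpL41 had 79.1 FPKM there and 1.28 FPKM in exosome replicate 3. Exosome replicate 3 had a median of 3.20 fragments per detected member, and exosome replicate 4 had 18.5. In cell replicates 2, 3 and 4 the medians were 49.6, 4.69 and 6.36 fragments. The deepest members were therefore in exosome replicate 4 and cell replicate 2, the only 2 of these 6 libraries with 1 or no detected member on 1 to 3 fragments. These fragments are estimates from the fitted steps, not read counts, and carry error beyond counting error.

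**Figure D2:**
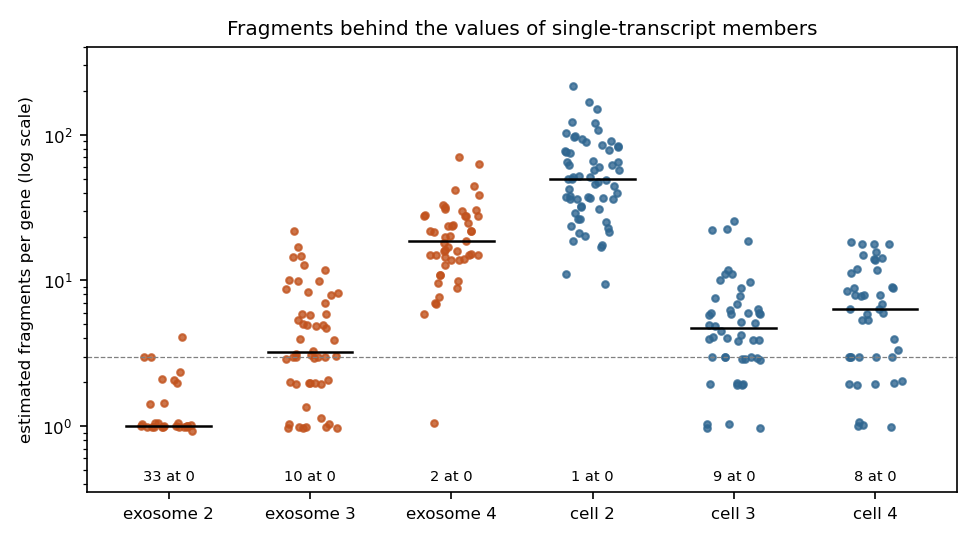
Estimated fragments per gene (log scale) for members with 1 transcript in the 6 libraries whose values rise in steps, with exosome libraries left of cell libraries. Each point is a gene, the black bar is the median of the genes above 0, and the dashed line marks 3 fragments. The medians are 1 fragment in exosome replicate 2, 3.20 in exosome replicate 3 and 18.5 in exosome replicate 4, against 49.6, 4.69 and 6.36 fragments in the 3 cell libraries.

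Exosome replicate 1, whose depth is unknown, was set beside cell replicate 1. Its members were listed at 0 or, for most of the rest, near their level in cell replicate 1. For the 42 members above 0, the ratio of exosome replicate 1 to cell replicate 1 had a median of 1.01, and 37 of the 42 ratios lay within 2-fold. The lowest ratio was 0.0849 (mRpS5) and the highest 3.32 (mRpL42). The 33 members at 0 had 16.5 to 132 FPKM in cell replicate 1, with a median of 47.8 FPKM, and the median there was 48.7 FPKM for the 42 above 0. Detected and undetected members thus had nearly equal medians in the cell library. This was not particular to exosome replicate 1. For exosome replicate 3, the medians in cell replicate 1 were 45.2 FPKM for members at 0 and 49.0 FPKM for those above 0. For exosome replicate 2 they were 55.4 and 43.2 FPKM. The share of all genes within 2-fold was not computed.

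Of the large subunit, mRpL12, mRpL18, mRpL23 and mRpL42 had the highest mean log2(FPKM + 1) over the 8 libraries. The first of these, mRpL12 (CG5012), encodes the relative of the bacterial stalk protein that contacts translation factors. It had 181, 0, 14.1 and 32.4 FPKM in exosome replicates 1 to 4, against 186, 73.7, 19.4 and 2.92 FPKM in cell replicates 1 to 4. Apart from the 0 in exosome replicate 2, it stood at percentiles 86.1 to 95.7 of tested genes in the exosome libraries. The log2 difference, the exosome minus the cell mean of log2(FPKM + 1), was -0.90 ± 1.56 (SE, adjusted p = 0.845 in limma over all tested genes), and it turned to 0.47 without exosome replicate 2.

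mRpL23 (CG1320) encodes a protein at the rim of the exit tunnel. Its level was 104, 25.9, 7.54 and 42.5 FPKM in the exosome libraries, against 48.2, 85.0, 8.04 and 5.43 FPKM in the cell libraries. The groups overlapped, with a log2 difference of 0.52 ± 1.58 (SE, adjusted p = 0.916 in limma). The mitochondria-specific protein gene mRpL42 (CG12921) had 200, 0, 19.0 and 16.9 FPKM in exosomes, against 60.3, 106, 9.26 and 1.65 FPKM in cells. This gene had the highest exosome value of the large subunit in replicate 3 and a 0 in replicate 2, and the log2 difference was -0.33 ± 1.51 (SE, adjusted p = 0.949 in limma).

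mRpL18 (CG12373), whose bacterial relative binds the small ribosomal RNA of the large subunit, was above 0 in all 8 libraries. Values were 49.2, 17.7, 8.40 and 31.2 FPKM in the exosome libraries, against 52.0, 53.4, 5.47 and 2.33 FPKM in the cell libraries. By FPKM the groups overlapped, and the log2 difference of 0.55 ± 1.52 (SE) had an adjusted p of 0.907 in limma. By rank they did not overlap, since it stood at percentiles 88.4, 78.4, 83.1 and 85.6 in the exosome libraries, against 73.3, 74.8, 64.5 and 66.6 in the cell libraries. In exosome replicate 2 its value rested on about 0.925 of an estimated fragment, that is on 1. As 42.3% and 48.9% of tested genes were at 0 in exosome replicates 1 and 2, any gene above 0 there ranked above all of those. For example, mRpS22, on about 0.994 of a fragment, stood at percentile 66.4 in exosome replicate 2.

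The large subunit members with the highest log2 difference, beside mRpL18, were mRpL54 and mRpL41, both proteins with no bacterial relative. mRpL54 (CG9353) had 22.0, 22.7, 0 and 11.6 FPKM in exosomes, against 24.3, 22.1, 0 and 0 FPKM in cells, a log2 difference of 0.89 ± 1.33 (SE, adjusted p = 0.821 in limma). The zeros fell in replicate 3 of both groups and in cell replicate 4. mRpL41 (CG12954) had 27.3, 79.1, 1.28 and 15.5 FPKM in exosomes, against 32.9, 64.9, 3.51 and 0.557 FPKM in cells, a log2 difference of 0.61 ± 1.46 (SE, adjusted p = 0.888 in limma). Its 79.1 FPKM in exosome replicate 2 stood for about 2.97 fragments, while 64.9 FPKM in cell replicate 2 stood for 51.3. Neither passed the test, and both differences fell below 0 without exosome replicates 1 and 2.

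At the other end stood mRpL9, mRpL55 and mRpL33. mRpL9 (CG31478), the relative of a bacterial protein that lies near the L1 side of the large subunit, was listed at 0, 0, 4.24 and 0 FPKM in exosomes, against 46.2, 44.4, 4.51 and 3.83 FPKM in cells. Its log2 difference of -3.35 ± 1.23 (SE) was the lowest of the members, with an unadjusted p of 0.00642 and an adjusted p of 0.708 in limma. It was 1 of only 2 members at 0 in exosome replicate 4, where mRpL2 was the other. In exosome replicate 3 it held 4.24 FPKM, about 4.87 fragments, beside 4.51 FPKM and 5.83 fragments in cell replicate 3.

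mRpL55 (CG14283), whose mammalian relative descends from a bacterial large subunit protein, had 0, 0, 5.79 and 30.7 FPKM in exosomes, against 61.7, 116, 18.3 and 3.16 FPKM in cells. The log2 difference was -2.86 ± 1.41 (SE, unadjusted p = 0.0432, adjusted p = 0.708 in limma). mRpL33 (CG3712), likewise of bacterial descent, had 0, 0, 7.50 and 46.8 FPKM in exosomes, against 111, 116, 26.7 and 0 FPKM in cells, with a log2 difference of -2.45 ± 1.42 (SE, adjusted p = 0.708 in limma). In both genes the zeros of exosome replicates 1 and 2 stood against 2 high cell libraries, and in exosome replicate 4 both lay above cell replicate 4.

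In the small subunit, the highest means of log2(FPKM + 1) belonged to mRpS16, mRpS7, mRpS34 and mRpS35. mRpS16 (CG8338), whose bacterial relative takes part in early assembly of the small subunit, had 178, 71.5, 1.69 and 34.5 FPKM in exosomes, against 117, 108, 6.35 and 1.70 FPKM in cells. It led the small subunit in exosome replicate 1 with 21.2% of that subunit's summed FPKM. Exosome replicate 3 and cell replicate 4 were nearly equal and low, and the log2 difference was 0.57 ± 1.58 (SE, adjusted p = 0.907 in limma).

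mRpS7 (CG5108), whose bacterial relative organises the head of the small subunit, was the other member whose groups did not overlap by rank. Its levels were 76.4, 34.7, 11.2 and 29.9 FPKM in exosomes, against 44.6, 78.3, 9.17 and 4.55 FPKM in cells. By FPKM these overlapped, with a log2 difference of 0.59 ± 1.57 (SE, adjusted p = 0.905 in limma). In rank it stood at percentiles 91.9, 87.0, 87.6 and 85.0 in exosomes, against 69.5, 81.4, 78.0 and 81.5 in cells. The gap between the lowest exosome and the highest cell rank was small beside the range within cells, and the value in exosome replicate 2 rested on about 1.98 fragments.

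mRpS34 and mRpS35 encode small subunit proteins found only in mitochondria. mRpS34 (CG13037) had 94.7, 42.6, 3.14 and 16.7 FPKM in exosomes, against 60.3, 43.6, 4.72 and 2.11 FPKM in cells, a log2 difference of 0.66 ± 1.52 (SE, adjusted p = 0.885 in limma). mRpS35 (CG2101) had 48.7, 43.8, 1.10 and 22.8 FPKM in exosomes, against 59.9, 51.1, 4.79 and 2.65 FPKM in cells, a log2 difference of 0.18 ± 1.5 (SE, adjusted p = 0.969 in limma). Both were seen in all 8 libraries, and in both the lowest values were those of exosome replicate 3 and cell replicate 4.

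The highest log2 differences of the small subunit were those of mRpS31, mRpS17 and mRpS2, and none passed the test. mRpS31 (CG5904), specific to mitochondria, had 44.8, 9.36, 0 and 7.03 FPKM in exosomes, against 31.9, 0, 2.86 and 0 FPKM in cells. It was the only member at 0 in cell replicate 2, the library in which the other members were deepest, and its log2 difference was 1.23 ± 1.25 (SE, adjusted p = 0.760 in limma). mRpS17 (CG4326), a relative of a bacterial protein that binds ribosomal RNA, had 42.2, 60.3, 1.98 and 17.8 FPKM in exosomes, against 36.1, 24.6, 1.78 and 1.17 FPKM in cells, a log2 difference of 1.18 ± 1.45 (SE, adjusted p = 0.787 in limma). mRpS2 (CG2937), also of bacterial descent, had 47.0, 14.0, 1.40 and 11 FPKM in exosomes, against 49.2, 26.3, 0 and 0.252 FPKM in cells. Its log2 difference of 0.90 ± 1.38 (SE, adjusted p = 0.826 in limma) fell to 0.003 without cell replicate 3.

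tko and bonsai are the small subunit genes best known from Drosophila genetics. tko (technical knockout, CG7925) encodes the relative of the bacterial decoding-centre protein S12, and its mutants are sensitive to mechanical shock. Its level was 0, 0, 0 and 11.3 FPKM in exosomes, against 38.4, 40.9, 2.94 and 1.77 FPKM in cells. Exosome replicate 4, the one exosome library with tko, held about 8.87 fragments of it, and cell replicates 2, 3 and 4 held 37.8, 2.90 and 3.94. The log2 difference was -2.63 ± 1.21 (SE, unadjusted p = 0.0304, adjusted p = 0.708 in limma), and the groups overlapped because exosome replicate 4 exceeded cell replicates 3 and 4.

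bonsai (CG4207), the relative of the bacterial protein S15 whose mutants are small and grow slowly, had 18.7, 0, 0.651 and 14.8 FPKM in exosomes, against 31.5, 23.8, 3.42 and 1.84 FPKM in cells. Its log2 difference was -1.07 ± 1.34 (SE, adjusted p = 0.787 in limma), close to the median of all tested genes, -1.01. By rank it ran from percentile 10.9 to 79.5 in exosomes, a wider range than its 49.3 to 59.4 in cells.

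With tko, the lowest differences of the small subunit were those of mRpS18C and mRpS10, both of bacterial descent. mRpS18C (CG9688) had 0, 0, 0 and 20.1 FPKM in exosomes, against 71.2, 46.1, 0 and 5.15 FPKM in cells, a log2 difference of -2.49 ± 1.25 (SE, unadjusted p = 0.0463, adjusted p = 0.708 in limma). mRpS10 (CG4247) had 0, 0, 4.92 and 7.57 FPKM in exosomes, against 33.7, 40.2, 4.33 and 3.23 FPKM in cells, a log2 difference of -2.33 ± 1.30 (SE, adjusted p = 0.708 in limma). As with tko, the zeros of exosome replicates 1 and 2 stood opposite the 2 highest cell libraries.

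Of the small subunit genes by name, mRpS30 and mRpS18A have mammalian relatives that sit in the large subunit. mRpS30 (CG8470) had 0, 0, 2.22 and 6.04 FPKM in exosomes, against 60.0, 11.8, 1.08 and 1.42 FPKM in cells, a log2 difference of -1.86 ± 1.16 (SE, adjusted p = 0.708 in limma). mRpS18A (CG31450) had 0, 0, 3.92 and 22.4 FPKM in exosomes, against 41.8, 22.1, 2.40 and 1.15 FPKM in cells, a log2 difference of -1.49 ± 1.28 (SE, adjusted p = 0.735 in limma). Counting both with the large subunit gave medians of -0.80 for the large and -0.66 for the small subunit.

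Large and small subunit mRNAs were in much the same proportion in all cell libraries and in widely varying proportion in exosome libraries. The summed FPKM of the 47 large subunit genes divided by that of the 28 small subunit genes was 2.66, 0.739, 1.48 and 1.47 in exosome replicates 1 to 4, against 1.77, 1.98, 1.71 and 1.66 in cell replicates 1 to 4. The exosome mean was 1.59 ± 0.796 (SD, n = 4) and the cell mean 1.78 ± 0.139 (SD, n = 4). Exosome replicate 1 lay above and the other 3 exosome libraries lay below every cell library, so the difference of the log2 ratio, -0.31, was smaller than its spread among exosome libraries (SD 0.756) and became 0.01 without exosome replicate 2. Per gene, the large subunit mean was 1.59, 0.440, 0.880 and 0.878 times the small subunit mean in exosomes, against 1.06, 1.18, 1.02 and 0.990 times in cells.

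Single genes held a sizeable part of the sums in the 2 outlying exosome libraries. In exosome replicate 1, mRpL34 alone, a gene of bacterial descent chosen here after its values were seen, held 329 FPKM, or 14.7% of the large subunit sum, and the ratio without it was 2.27, still above every cell library. In exosome replicate 2, mRpS14, chosen in the same way, held 114.9 FPKM, or 21.7% of the small subunit sum, and the ratio without it was 0.943, still below every cell library. The readable members of the large and small subunits had about 20.5 and 19.9 fragments there in all. The fragments of exosome replicate 1 are unknown. Exosome replicate 3, with a ratio of 1.48, had 170 large and 102 small subunit fragments, and exosome replicate 4, with 1.47, had 691 and 406. As a ratio of fragments, large over small was 1.03, 1.67 and 1.70 in exosome replicates 2, 3 and 4, against 2.30, 1.61 and 1.73 in cell replicates 2, 3 and 4. The readable members differed by library, from 35 large and 17 small in cell replicate 4 to 41 and 23 in cell replicate 2. Fragments are also not divided by length, so these ratios do not compare 1 set of genes. With that limit, the fragment ratios of exosome replicates 3 and 4 lay inside the cell range, and that of exosome replicate 2 below it.

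Each subunit's own share of the total was then taken. Large subunit genes made up 0.263%, 0.118%, 0.188% and 0.197% of summed FPKM in exosomes, against 0.35%, 0.229%, 0.2% and 0.0818% in cells. Small subunit genes made up 0.0988%, 0.160%, 0.127% and 0.134% in exosomes, against 0.197%, 0.116%, 0.117% and 0.0492% in cells. In both subunits the exosome values fell within the cell range. The median rank of large subunit genes was percentile 58.1 ± 27.2 in exosome libraries, against 59.9 ± 16.2 in cell libraries (SD, n = 4 each). That of small subunit genes was 59.3 ± 16.3 in exosome libraries, against 62.2 ± 7.80 in cell libraries (SD, n = 4 each). The differences, -1.84 and -2.88 percentile points, were smaller than the spread of either group.

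**Figure D3:**
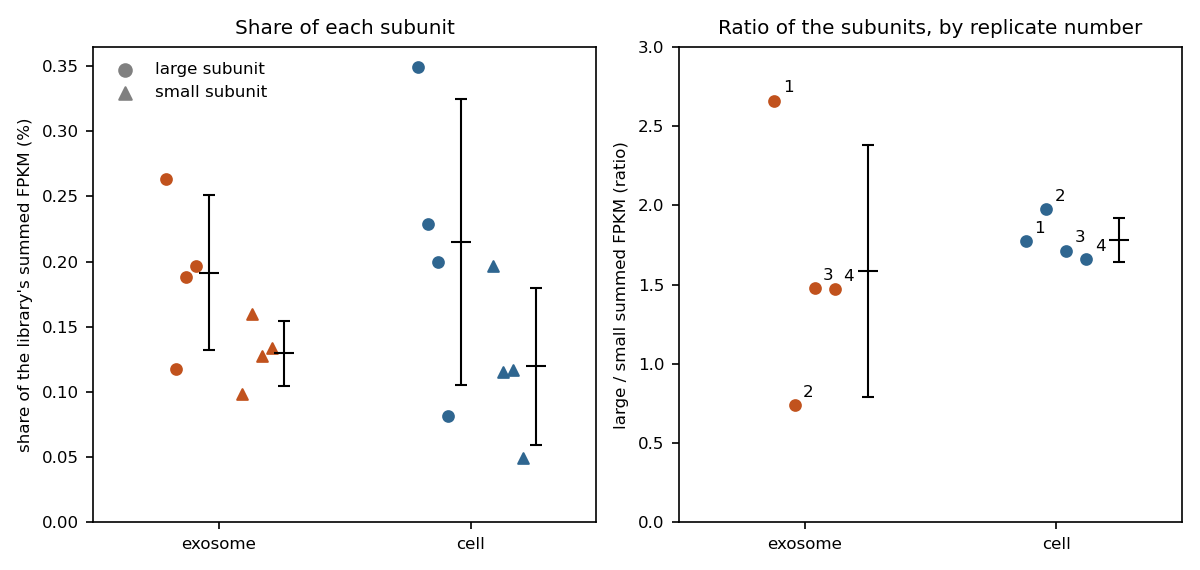
Left, the share of each library's summed FPKM (%) held by large subunit (circles) and small subunit (triangles) genes in exosome and cell libraries. Right, the ratio of large to small subunit summed FPKM in each library, numbered by replicate. Bars show mean ± SD of 4 libraries. The ratio spans 0.739 to 2.66 in exosome libraries, against 1.66 to 1.98 in cell libraries.

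Across genes, no member passed the test. With limma on log2(FPKM + 1) and adjustment over 5868 tested genes, 0 of the 73 tested members were called higher and 0 lower in exosomes, and over all tested genes the shares called were likewise 0% higher and 0% lower. The lowest adjusted p was 0.708 both among the members and over all genes. At an unadjusted p under 0.05 in limma, 0 members were higher and 4 were lower, namely mRpL9, mRpL55, tko and mRpS18C. Over all tested genes 0.0852% were higher and 4.62% lower at that threshold, so the 4 of 73 members stand near the background. Without cell replicate 4 the 4 became 13 (17.8% of the tested members, beside 20.4% of all tested genes), and without exosome replicate 4 they became 10 (13.7%, beside 6.71%). Without cell replicate 3 they became 5 (6.85%, beside 5.88%). Without exosome replicate 1, 2 or 3 or cell replicate 1 or 2 they became 1 or 2, beside 1.01% to 3.73% of all tested genes. The direction also depended on scaling. After quantile normalization 0 members were higher and 1 lower, beside 206 and 156 of the 5868 tested genes. After median centring 2 were higher and 1 lower, beside 130 and 74.

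Overlap of the groups was counted as well. No member had all 4 exosome FPKM above or all 4 below the cell FPKM, where 0.0341% of tested genes lay above and 0.75% below. By rank within the library, 2 members lay above (mRpL18 and mRpS7) and 0 below, beside 2.51% of tested genes above and 2.06% below. These 2 of 73 are near the background share.

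The median log2 difference was -0.77 for the 45 tested large subunit genes and -0.78 for the 28 small subunit genes, against -1.01 for all tested genes. Both medians thus lay 0.23 above that of all genes. Both signs depend on scaling, since centring each library on its median gave 0.45 for the large and 0.44 for the small subunit with 0.22 over all genes, and quantile normalization gave 0.18 and 0.20 with 0.11 over all genes. Counted against that median, 31 large subunit genes were above and 14 below, and 15 small subunit genes were above and 13 below. The range was wide in both, from -3.35 to 0.89 in the large and from -2.63 to 1.23 in the small subunit. With no filter on low values, the median over all genes was -0.50, and the medians of the large (-0.80) and small (-0.78) subunits then lay below it.

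**Figure D4:**
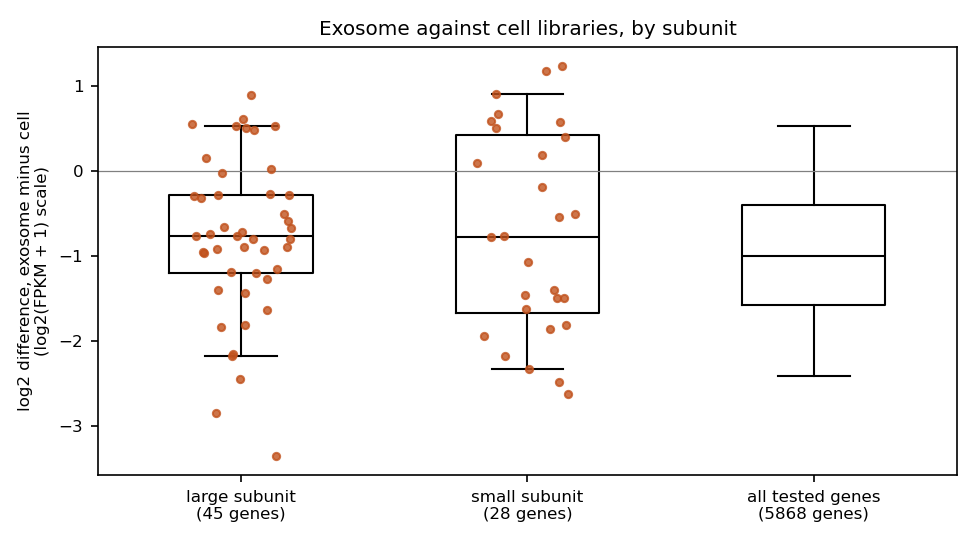
Difference of the mean log2(FPKM + 1), exosome minus cell, for the tested large subunit (45) and small subunit (28) genes, with each gene as a point, and for all 5868 tested genes. Boxes span the quartiles with the median as a line, and whiskers the 5th to 95th percentile. The medians are -0.77, -0.78 and -1.01, and the 2 subunit medians turn positive, as does that of all genes, when libraries are centred on their medians or quantile normalized.

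By descent, as sorted by number, the 46 tested members counted with a bacterial relative had a median log2 difference of -0.91, with 26 above and 20 below the median of all genes. The 27 counted without one had a median of -0.77, with 20 above and 7 below. Summed FPKM of the members counted as mitochondria-specific was 0.517, 0.635, 0.476 and 0.502 times that of the others in exosomes, against 0.498, 0.5, 0.439 and 0.455 times in cells. The groups overlapped in this proportion.

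Other genes of mitochondrial gene expression were compared as lists, and in each 0 genes were called in limma. Of 12 mitochondrial translation factors, 9 were tested, with a median log2 difference of -0.54 and with 7 above and 2 below the median of all genes. The most abundant, mEFTu1, a relative of the elongation factor that delivers aminoacyl-tRNA, had 41.0, 19.8, 3.70 and 13.2 FPKM in exosomes, against 128, 83.9, 4.02 and 3.47 FPKM in cells. Of 12 genes of mitochondrial DNA maintenance and transcription, 7 were tested (median -0.88, 4 above and 3 below), led by the single-stranded DNA binding protein gene mtSSB with 0, 28, 10.8 and 38.6 FPKM in exosomes and 92.6, 109, 18.1 and 5.44 FPKM in cells. Of 20 protein import genes, 16 were tested (median -0.76, 9 above and 7 below). The medians of these 3 lists lay above that of all genes, -1.01, in the same fit.

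Genes of the respiratory chain, whose mitochondrially encoded subunits these ribosomes make, were taken by genome of origin. Of 85 nuclear genes of the respiratory chain and ATP synthase, 66 were tested, with a median log2 difference of -0.19 and 39 above and 27 below the median of all genes. The 13 mitochondrially encoded mRNAs, the templates of mitochondrial ribosomes, gave 10 tested genes with a median of -3.19, all 10 below the median of all genes. Of the 10, 7 were lower at an unadjusted p under 0.05 in limma, beside 4.62% of all tested genes, and 0 were called. Of the 13 mRNAs, 13, 3, 8 and 9 were listed at 0 in exosome replicates 1 to 4, against 2, 2, 6 and 3 in cell replicates 1 to 4. Such genes pass the filter of 1 FPKM in 4 libraries largely through cell libraries. The filter thus favours genes that are high in cells, and the counts of 10 and 7 lower genes are partly set by it. Their share of summed FPKM was 0%, 0.470%, 0.0112% and 0.00364% in exosomes, against 0.137%, 0.735%, 0.468% and 0.424% in cells, so exosome replicate 2 lay within the cell range and the other 3 below it. In the same exosome libraries 3 and 4, the mRNAs of the mitochondrial ribosome kept shares of 0.315% and 0.331%. Cytosolic ribosomal protein genes, 83 tested of 88, had a median of 0.19 with 49 above and 34 below the median of all genes. Their differences were widely split, with quartiles of -2.86 and 0.47. The median rank of these genes, averaged over libraries, was percentile 99.1 in both groups, although 40 of the 88 were at 0 in exosome replicate 1.

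The libraries most alike in their levels across the 75 members came from different groups. Spearman's correlation over the members, given as a description since genes are not independent and share library and length, was highest between exosome replicate 4 and cell replicate 2, at 0.74, and between exosome replicate 3 and cell replicate 3, at 0.60. Between the cell replicates numbered 1 and 2 it was 0.51. Exosome libraries correlated with each other at -0.13 to 0.21. Members tied at 0 numbered 33 and 42 of the 75 in exosome replicates 1 and 2. In replicates 3 and 4, which had 0.19 with each other, they numbered 13 and 2. Exosome replicate 4 and cell replicate 2 were also the deepest libraries with a readable step, with medians of 18.5 and 49.6 fragments per detected member. The part of zeros and depth in these correlations was not tested. Exosome replicate 1 reached 0.33 with cell replicate 1 over the 75 members and 0.83 over the 42 that were above 0 in it. Exosome replicate 2, the library on few fragments, reached at most 0.21 with any other.

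**Figure D5:**
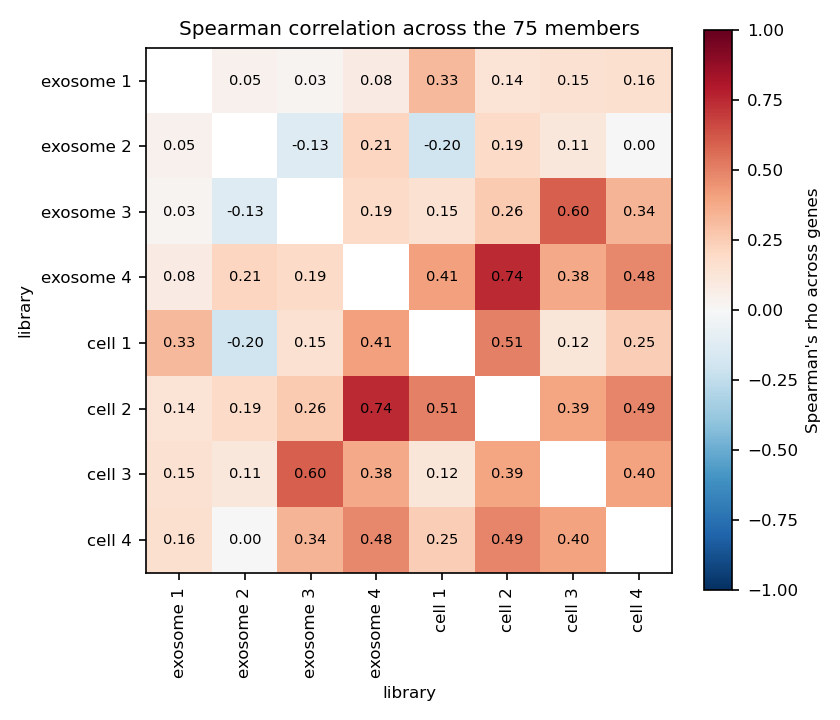
Spearman's rho between libraries across the 75 genes, with exosome libraries above and left of cell libraries. The highest values join exosome replicate 4 with cell replicate 2 (0.74) and exosome replicate 3 with cell replicate 3 (0.60), and the exosome libraries have -0.13 to 0.21 among themselves.

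The relation of level to transcript length varied by library. Over the 74 members with a length, Spearman's rho between level and length was -0.13, 0.05, 0.15 and -0.44 in exosome replicates 1 to 4, against -0.30, -0.36, -0.08 and -0.12 in cell replicates 1 to 4. Shorter members thus had the higher values mainly in exosome replicate 4 and cell replicates 1 and 2. Among the 42 members above 0 in exosome replicate 1 rho was -0.48. FPKM are already divided by length, and the part of length in the differences between groups was not tested.

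5 members had more than 1 transcript in the table, namely mRpL23, mRpL47, mRpS5, mRpS10 and mRpS18B. For mRpL23 transcript RA was the one form above 0 in all 8 libraries, and in the other 4 genes the split changed by library. For mRpS5, transcript RD held 2.03, 0, 12.2 and 0 FPKM in exosomes, against 33.9, 0, 0 and 0 FPKM in cells, and transcript RA held 1.05, 16.6, 6.88 and 18.1 FPKM in exosomes, against 2.24, 36.5, 17.0 and 4.04 FPKM in cells. RD was thus the main form in exosome replicates 1 and 3 and in cell replicate 1, and RA in the others. For mRpS18B, transcript RA was the one form above 0 in exosome replicate 1 (30.5 FPKM) and in cell replicate 4 (0.371 FPKM), and RB in the other 6 libraries. For mRpL47, RA was the one form in exosome replicate 2 (12.8 FPKM), and RB wherever else the gene was above 0. The summed values used for these genes do not depend on the split.

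The annotation places 44 of the 75 members over exons of another gene, 43 of them on the opposite strand and 3 on the same strand. The 3 are mRpL13 with CG10602, mRpS14 with CG32533, and mRpL53, all 829 of whose bases lie within CG33155. The library kit was directional, per the labels' protocols, and the sources used here do not state if strand entered the counting. Values of these members, mRpL53 above all, are uncertain to that extent. So is mRpS14, 255 of whose 476 bases also lie over the opposite-strand gene Naa15-16. Of the genes described one by one above, mRpS2, mRpS18C and bonsai overlap an opposite-strand gene by 61, 58 and 62 bases, as do mRpL44 and mRpL35 by 104 and 83 bases, and mRpL34 by 32 bases. The overlap was 5 to 48 bases for mRpL18, mRpL23, mRpL41, mRpL42, mRpL9, mRpS16, mRpS31 and mRpS34.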

How the data were processed

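The deposited gene table held FPKM values per transcript made by the authors for 4 exosome and 4 cell libraries. The unit was read from the values and from Cufflinks among the tools. Per the submitters' processing notes, the build was dm3 and the tools included DESeq2, TopHat2 and Cufflinks, whose versions and roles are not given. 21081 transcripts were summed to 14012 genes by CG identifier, and 13522 of these had a current symbol in the Release 6 annotation, which was used for names, lengths and overlapping genes only. No coordinates and no sequences are given, as no genome of the authors' build was used. The transposon table was not used, and 0 columns of values were left unused.

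The 5868 genes that exceeded 1 FPKM in 4 or more libraries entered limma 3.58.1 (R 4.3.3) as log2(FPKM + 1). Its moderated test, with a trend and no block, compared exosome with cell libraries, with Benjamini-Hochberg adjustment at 0.05. The pseudocount of 1 understates the change of low genes. Python 3.11.15 with numpy 2.4.6, pandas 2.3.3, scipy 1.17.1 and matplotlib 3.10.9 did the rest. Fragments were read from the steps of low values of genes with 1 transcript. In the 6 libraries with a step, the share of these values no more than 0.15 from a whole number was 74.1% to 85.7%, beside 30% for evenly spread values. In the replicates numbered 1, judged to have no step, the shares were 40.9% and 48.8%. The step was fitted to the same values, so these are estimates, and no count test was run. The scripts were tested on simulated data.

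The members and lists were chosen with earlier results of these data known. Members named one by one are tko, bonsai, mRpS30, mRpS18A, the 4 highest means and the 3 highest and 3 lowest differences per subunit, and those whose groups do not overlap. Of each list, the gene with the highest mean could be named. Alternatives were another pseudocount (0.1), quantile normalization, median centring, no filter, a filter at 10 FPKM, a replicate block, leaving out libraries, ranks among all genes and another assignment to subunits.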

Additional observations from a re-analysis of the deposited data

Results flagged for a closer look

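Of 54 sets of 4 values examined with Dixon's test at 95%, 3 held a library far from the others, where chance flags about 5%. Each is a gene at 0 in 3 exosome libraries and above 0 in 1, so that the test reads only that library against equal values. mRpL9 had 4.24 FPKM in exosome replicate 3. mRpS18C had 20.1 FPKM in exosome replicate 4. tko had 11.3 FPKM in exosome replicate 4.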

How the results depend on the processing

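The subunit medians, median ranks, shares and log2 ratio moved by less than the SD pooled over both groups under every alternative run. This limit is wide and does not show stability. For ranks, shares and the ratio, leaving out 1 of 4 libraries cannot move a group mean past it. The large subunit's rank difference, -1.84 percentile points, became -10.7 without exosome replicate 1 and 9.37 without exosome replicate 2. For the log2 ratio the pooled SD is mostly spread among exosome libraries. Its difference of -0.31 ranged from -0.60 without exosome replicate 1 to 0.01 without exosome replicate 2. 0 members were called under any alternative. Over all genes, 0 were called in limma under each alternative except without cell replicate 4, where 1 was lower (Dph3, named after its values were seen, at 0 in all 4 exosome libraries, adjusted p = 0.0397), so leaving out 1 library gave 0 to 1 calls. Relative to the median of all genes, leaving out 1 library moved the large subunit median from -0.06 (without cell replicate 3) to 0.85 (without exosome replicate 2), and the small subunit median from -0.21 (without exosome replicate 4) to 0.45 (without exosome replicate 3). A filter at 10 FPKM left 33 large and 16 small subunit genes, with medians of -0.68 and 0.14. At an unadjusted p under 0.05 in limma, all genes gave 206 higher and 156 lower after quantile normalization and 130 and 74 after median centring, against 5 and 271 as reported, and 5 and 1200 without cell replicate 4.

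The log2 differences of named members, none called, changed sign as follows. Median centring gave 0.15 for bonsai, 0.32 for mRpL12 and 0.90 for mRpL42, and quantile normalization 0.62 for mRpL42 and 0.14 for mRpS18A. Leaving out exosome replicates 1 and 2, an alternative chosen after seeing the data, turned 11 of 22 signs. It gave -0.21 for mRpL23, -0.87 for mRpL41, -0.47 for mRpL54, -1.20 for mRpS16, -0.21 for mRpS17, 0.22 for mRpS18A, -0.26 for mRpS2, -0.25 for mRpS31, -0.79 for mRpS34, -1.19 for mRpS35 and -0.13 for mRpS7. Leaving out 1 library at a time ranged from -2.03 to 0.47 for mRpL12, -0.20 to 1.14 for mRpL18, -0.076 to 1.17 for mRpL23, -0.34 to 1.58 for mRpL41, -1.53 to 1.02 for mRpL42, -0.45 to 1.78 for mRpS16, -0.088 to 1.5 for mRpS34, -0.53 to 1.22 for mRpS35 and -0.058 to 1.22 for mRpS7. The cause was not tested.

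The replicate numbers were not taken as pairs, since not every same-numbered pair passed 0.1. Same-numbered libraries had correlations of 0.23, 0.19, 0.45 and -0.07 of their deviations from the group means. Exosome replicates 1, 2 and 3 correlated best with the cell library of their own number, a hint from the data, and exosome replicate 4 with cell replicate 2 (0.41). With the replicate number as a block, 0 genes and 0 members were called in limma, and 163 genes and 2 members were lower at an unadjusted p under 0.05, against 271 and 4 without it. Depth limits the rest, since exosome replicate 2 held 1 to 3 fragments for nearly all members it showed.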
